A study of Homo sapiens with 6 samples.

Results

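The genes described here are 10 ovarian cancer markers, MSLN, MUC16, WFDC2, PAX8, FOLR1, MUC1, WT1, SOX17, KLK6 and CLDN4. They are proteins used in pathology, in serum tests or as targets of therapy for tumours of the ovary and fallopian tube. The members were taken by gene symbol, and all 10 were found among the 59008 symbols of the table. Their values are transcripts per 1000000 (TPM), a measure of RNA abundance per transcript length within a library, so levels of different genes can be set side by side.

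The 6 libraries come from Hey and SKOV3, 2 established human ovarian cancer lines, each sequenced as parental cells, as polyploid giant cancer cells (PGCCs) and as daughter cells. Parental cells were untreated. PGCCs, very large cells with multiplied genomes, were obtained by 500 nM paclitaxel for 16 hours and recovery in plain medium. Paclitaxel binds microtubules and arrests dividing cells in mitosis. Their treatment labels give 3 days of recovery in both lines, whereas day 7 stands in the SKOV3 title. Daughter cells, the small cells that grow out after the giant cells, had the same paclitaxel and 30 days of recovery, and each daughter library is labelled as clone 1 of its line. Each condition is 1 library, so no value has an error, and a daughter state cannot be told apart from the clone that was picked. Hey was grown in MEM Eagle and SKOV3 in RPMI-1640, both with 10% fetal bovine serum, so a difference between the lines cannot be told apart from one between the media.

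Mesothelin (MSLN) is a glycoprotein held on the cell surface by a lipid (GPI) anchor, and it binds MUC16, a very large transmembrane mucin whose shed part is measured in blood as CA125. MUC1 is another transmembrane mucin, FOLR1 (folate receptor alpha) is a GPI-anchored protein that takes up folate, and CLDN4 is a claudin of tight junctions. WFDC2 encodes the secreted protein HE4 and KLK6 a secreted serine protease. PAX8 and SOX17 are transcription factors of the Müllerian duct and the fallopian tube epithelium, and WT1 is a transcription factor stained in serous carcinoma. Several of these proteins are known from tumours with epithelial features, and a single cell line need not express all of them.

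MSLN was lower by more than 2-fold in the daughter cells of both lines. The Hey libraries were at 21.5 TPM for parental cells, 23.3 for PGCCs and 0.386 for daughter cells. The SKOV3 libraries were at 33.1 TPM for parental cells, 46.1 for PGCCs and 1.85 for daughter cells. Both daughter libraries were thus below all 4 parental and PGCC libraries. On the log2(TPM + 1) scale, which understates the change of genes at low levels, daughter minus parental was -4.02 in Hey and -3.58 in SKOV3. As ratios of TPM, parental cells had 55.7 times the daughter level in Hey and 17.9 times in SKOV3. Against PGCCs the daughter cells differed by -4.13 in Hey and -4.05 in SKOV3, TPM ratios of 60.2 and 24.9. PGCC minus parental was 0.11 in Hey and 0.46 in SKOV3, both under the threshold of 1 (2-fold) used for calls. The gene lies on the plus strand at chr16:760734-768865 (GENCODE 44, GRCh38). In such bulk RNA, fewer cells that make a transcript and less of it per cell cannot be told apart.

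Genes whose mean over the 6 libraries reached 1 TPM, 14988 in all, are called expressed genes here, and few of them had a lower value than MSLN. The share with a lower daughter minus parental value was 0.133% in Hey and 0.494% in SKOV3, and for daughter minus PGCC it was 0.287% and 0.334%. MSLN was also compared with the genes that lie at least partly within 1 Mb of it, a description added after seeing the data. Symbols with several loci were left out. Of 43 expressed neighbours, 0 were lower by 2-fold in daughter than in parental cells of either line, and 1 was higher in Hey and 6 in SKOV3. Of all genes, 3.73% were lower and 6.31% higher in Hey, and 6.34% and 15.1% in SKOV3. The medians of these neighbours were 0.08 in Hey and 0.28 in SKOV3, so the MSLN difference was not shared by the region. In SKOV3 PGCCs against parental cells 27 of the 43 neighbours were higher and 1 was lower, beside 9.94% and 4.96% of all genes, while MSLN itself differed by 0.46. The differences of this comparison followed GC content (Spearman 0.704 across genes), and MSLN was at -0.53 with a GC and length trend removed.

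MUC16, the binding partner of MSLN, was hardly detected in Hey, at 0.00100, 0.0322 and 0.00200 TPM in the parental, PGCC and daughter libraries. In SKOV3 these were at 1.15, 1.59 and 0.00564 TPM. The SKOV3 daughter library was thus at the level of Hey, with parental cells at 204 times and PGCCs at 281 times its TPM. The mean over the libraries was 0.463 TPM, under the filter of 1, so no call was made for this gene (chr19:8848844-9010390, minus strand). On the log2(TPM + 1) scale the SKOV3 daughter minus parental difference was -1.10.

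FOLR1 was found in SKOV3 and was nearly absent from the Hey libraries. It was listed at 0 in Hey parental and daughter cells and at 0.0578 TPM in Hey PGCCs. The SKOV3 levels were 72.7 TPM for parental cells, 132 for PGCCs and 3.04 for daughter cells. The SKOV3 daughter library was therefore far below the other SKOV3 libraries, at a log2 difference of -4.19 from parental cells and -5.04 from PGCCs, which are TPM ratios of 23.9 and 43.3. Only 0.30% and 0.127% of genes had a lower value in these comparisons. PGCC minus parental was 0.85. FOLR1 lies at chr11:72189558-72196323 on the plus strand, next to its paralogs FOLR2 and FOLR3. FOLR3, a secreted folate receptor, was at 5.13, 16.0 and 3.31 TPM in SKOV3 parental, PGCC and daughter cells and at 2.3, 6.67 and 1.68 in Hey. FOLR2 did not exceed 0.258 TPM in any library. How reads shared by the paralogs were divided is set by the quantification, so the FOLR3 values are less certain. Of 19 expressed neighbours within 1 Mb of FOLR1, 4 were higher by 2-fold and 0 lower in SKOV3 daughter than parental cells, with a median of 0.08. The shares of all genes there were 15.1% higher and 6.34% lower.

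MUC1 was also nearly restricted to SKOV3. It was listed at 0 for Hey parental cells, at 0.10 TPM for the PGCCs and at 0.136 for the daughter cells of that line. The SKOV3 levels were 20.5 TPM for parental cells, 37.0 for PGCCs and 18.0 for daughter cells. Unlike MSLN, MUC16 and FOLR1, the SKOV3 daughter library kept a level near that of parental cells, with a log2 difference of -0.18. PGCC minus parental was 0.82 in SKOV3, and daughter minus PGCC was -0.998, just inside the threshold. MUC1 lies at chr1:155185824-155192916 on the minus strand.

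The MUC1 promoter is shown because MUC1 was at 18.0 TPM or more in each SKOV3 library and at 0.136 or less in each Hey library. The 250 bases before the RefSeq start (GRCh38.p14, chr1:155192916-155193165, minus strand, 5′ to 3′) are printed in lower case, with capitals for GC boxes (GGGCGG on either strand, the binding motif of SP1-like factors) and for a TEAD motif (CATTCC on either strand). MUC1 has 2 windows in the table and the first listed is given.
MUC1: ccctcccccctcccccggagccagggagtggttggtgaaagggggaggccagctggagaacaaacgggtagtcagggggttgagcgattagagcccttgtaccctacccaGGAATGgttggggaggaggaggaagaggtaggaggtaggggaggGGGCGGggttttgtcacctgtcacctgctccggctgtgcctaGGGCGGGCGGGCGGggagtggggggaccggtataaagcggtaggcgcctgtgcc
GC boxes began 96, 54, 50 and 46 bases before the start and the TEAD motif 140 bases before it. The last 3 GC boxes overlap each other in 1 run. Of 27305 gene windows of the same length, 42.3% held a GC box and 11.9% the TEAD motif, and 6.60% held the AP-1 motif TGANTCA, which MUC1 lacked. Windows were listed for 7 of the 10 markers, and 6 of those 7 held a GC box, including KLK6, which was not detected. The AP-1 motif was in CLDN4 alone among these 7 and the TEAD motif in MUC1 alone. Such matches are a description of the letters.

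CLDN4 was low everywhere, at 0.113, 0.683 and 0.0561 TPM in Hey parental, PGCC and daughter cells and at 1.26, 3.26 and 0.538 TPM in SKOV3. In both lines the PGCC library was the highest and the daughter library the lowest. The mean of 0.986 TPM was under the filter of 1, so CLDN4 had no call. The differences of log2(TPM + 1) were 0.60 in Hey and 0.91 in SKOV3 for PGCC minus parental, and -0.67 and -1.47 for daughter minus PGCC. CLDN4 is annotated at chr7:73799542-73832690 on the plus strand. Its close relative CLDN3 reached 1.82 TPM, in SKOV3 PGCCs.

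**Figure D1:**
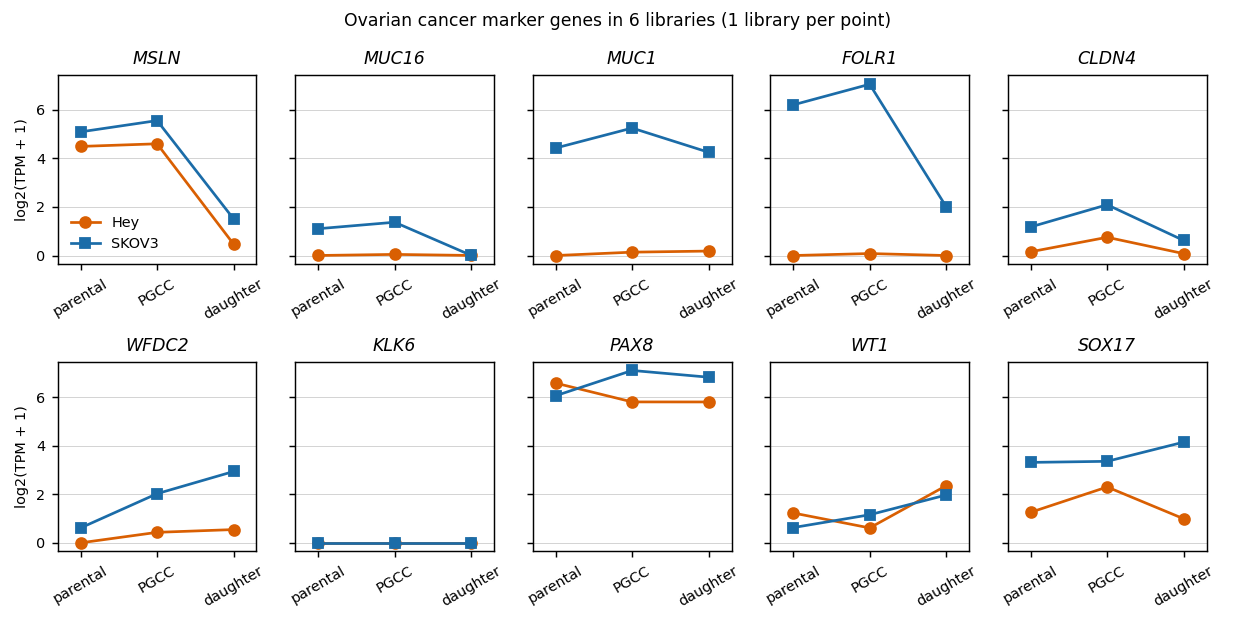
Level of each of the 10 marker genes as log2(TPM + 1) (y axis) in parental, PGCC and daughter libraries (x axis) of Hey (circles) and SKOV3 (squares), with 1 library per point and no error. MSLN is low in the daughter libraries of both lines, at 0.386 TPM in Hey and 1.85 in SKOV3, FOLR1 and MUC1 stand above 1 TPM in SKOV3 only, and KLK6 is at 0 in all 6 libraries.

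WFDC2 went the other way in SKOV3. Its levels were 0.531 TPM for parental cells, 3.07 for PGCCs and 6.66 for daughter cells, so that the library order was parental, PGCC, daughter. In Hey it was listed at 0 for parental cells, with PGCCs at 0.349 TPM and daughter cells at 0.459. The same order was seen there at levels under 1 TPM. PGCC minus parental was 1.41 in SKOV3 and 0.43 in Hey, and daughter minus parental was 2.32 and 0.55. The gene lies at chr20:45469753-45481532 on the plus strand. Its promoter window (GRCh38.p14, chr20:45469503-45469752, plus strand, RefSeq) is shown because WFDC2 was the 1 marker higher in SKOV3 in both comparisons with parental cells, and capitals mark a GC box that begins 113 bases before the start.
WFDC2: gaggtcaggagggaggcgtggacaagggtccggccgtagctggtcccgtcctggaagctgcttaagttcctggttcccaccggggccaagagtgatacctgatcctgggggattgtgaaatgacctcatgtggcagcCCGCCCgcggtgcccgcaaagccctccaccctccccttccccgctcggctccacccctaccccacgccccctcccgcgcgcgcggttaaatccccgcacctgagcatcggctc

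KLK6, a protease whose serum level is raised in ovarian carcinoma, was listed at 0 TPM in all 6 libraries (chr19:50958631-50969673, minus strand). Among the 14 other kallikreins all were at 0 in Hey parental cells, and 3 exceeded 1 TPM in any library, each in SKOV3 daughter cells. KLK10 was at 0.134, 0.0219 and 8.63 TPM in SKOV3 parental, PGCC and daughter cells. KLK13 and KLK11 were at 2.79 and 2.16 TPM in SKOV3 daughter cells. The files give no read counts, so the level that a listed 0 allows cannot be stated.

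PAX8 was the most abundant marker in 5 of the 6 libraries and the one detected at a high level in both lines. The Hey levels were 94.4 TPM for parental cells, 54.8 for PGCCs and 54.7 for daughter cells. The SKOV3 levels were 65.6 TPM for parental cells, 136 for PGCCs and 112 for daughter cells. PAX8 was above 83.3% to 93.2% of the expressed genes in each library. The lines thus differed in direction after paclitaxel, with PGCC minus parental at -0.77 in Hey and 1.04 in SKOV3 and daughter minus parental at -0.78 and 0.76. Only the SKOV3 PGCC value passed 2-fold. It was 0.98 after median-ratio scaling and 0.44 once a GC and length trend was removed. PAX8 lies at chr2:113215997-113278921 on the minus strand, and the antisense gene PAX8-AS1 overlaps it. PAX8-AS1 was at 0.169, 2.77 and 0.775 TPM in Hey and at 0.0436, 0.577 and 0.351 in SKOV3, and reads of the 2 cannot be told apart without strand, which the sources used here do not give. The promoter of PAX8 (chr2:113278922-113279171, minus strand, GRCh38.p14, RefSeq), shown for contrast with MUC1 since PAX8 was active in both lines, held 0 of the motifs searched.
PAX8: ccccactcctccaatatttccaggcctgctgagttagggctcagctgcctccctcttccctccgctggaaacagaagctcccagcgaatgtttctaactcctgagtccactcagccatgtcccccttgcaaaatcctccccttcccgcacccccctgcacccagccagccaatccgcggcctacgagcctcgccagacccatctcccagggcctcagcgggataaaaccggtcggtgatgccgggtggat

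WT1 was low in every library. Parental, PGCC and daughter cells were at 1.34, 0.530 and 4.10 TPM in Hey and at 0.545, 1.23 and 2.91 TPM in SKOV3. The daughter library was the highest of its line in both, with daughter minus parental at 1.12 in Hey and 1.34 in SKOV3. These differences were 0.86 and 0.89 under quantile normalization, and the Hey value was 0.99 after removal of a GC and length trend. PGCC minus parental was -0.62 in Hey and 0.53 in SKOV3. WT1 lies at chr11:32387775-32435564 on the minus strand. Its antisense neighbour WT1-AS, which overlaps the start, was at 0.809, 0.499 and 0.133 TPM in Hey and at 0, 0 and 1.24 in SKOV3.

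SOX17 was higher in SKOV3. The SKOV3 levels were 8.93 TPM for parental cells, 9.24 for PGCCs and 16.7 for daughter cells. The Hey levels were 1.39 TPM for parental cells, 3.92 for PGCCs and 0.988 for daughter cells. The 3 SKOV3 libraries did not overlap those of Hey, but the share of all genes for which this holds was not counted. Within a state, 24.2% to 29.6% of all genes were higher by 2-fold in SKOV3. The Hey PGCC library was the highest of its line, 1.04 above parental cells and 1.31 above daughter cells on the log2 scale, whereas SKOV3 PGCCs differed from parental cells by 0.04. The Hey PGCC minus parental difference was 0.74 under quantile normalization. In SKOV3 that difference was -0.58 with a GC and length trend removed. The gene is annotated at chr8:54457935-54460892 on the plus strand.

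The number of markers at 1 TPM or more was 4, 3 and 2 in the parental, PGCC and daughter libraries of Hey, and 7, 9 and 7 in those of SKOV3. Detection differed between libraries for all genes too. Symbols above 0 TPM numbered 19920, 25370 and 20154 in Hey and 22041, 23449 and 23893 in SKOV3. The share of all genes at 1 TPM or more in each library was not counted. The summed TPM of the 10 genes was 119, 83.7 and 60.9 in Hey and 204, 369 and 162 in SKOV3. Of the 10, 7 counted as expressed. MUC16, CLDN4 and KLK6 did not, and FOLR1, MUC1 and WFDC2 passed only through SKOV3, being under 1 TPM in each Hey library. A difference seen for these 3 between the lines is therefore partly fixed by the filter. WFDC2 and WT1 had means of 1.84 and 1.78 TPM, not far above the filter. For WFDC2 the mean rested mainly on the SKOV3 daughter library (6.66 TPM), for WT1 on the 2 daughter libraries (4.10 and 2.91). Their calls as higher in daughter cells are therefore favoured by the filter.

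For PGCCs against parental cells, 1 of the 7 markers was higher by 2-fold in Hey (SOX17) and 0 were lower, while 7.67% and 5.22% of all genes were higher and lower. In SKOV3 WFDC2 and PAX8 were higher and 0 were lower, against 9.94% and 4.96% of all genes. For daughter against parental cells of Hey, WT1 was higher and MSLN lower, with 6.31% and 3.73% of all genes called. In SKOV3, WFDC2 and WT1 were higher and MSLN and FOLR1 lower, with 15.1% and 6.34% of all genes called. For daughter cells against PGCCs of Hey, WT1 was higher and MSLN and SOX17 were lower, with 9.95% and 8.13% of all genes called. In SKOV3, 0 markers were higher and MSLN and FOLR1 were lower, with 14.6% and 9.25% of all genes called. The 3 comparisons of a line share libraries, so they do not repeat each other.

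**Figure D2:**
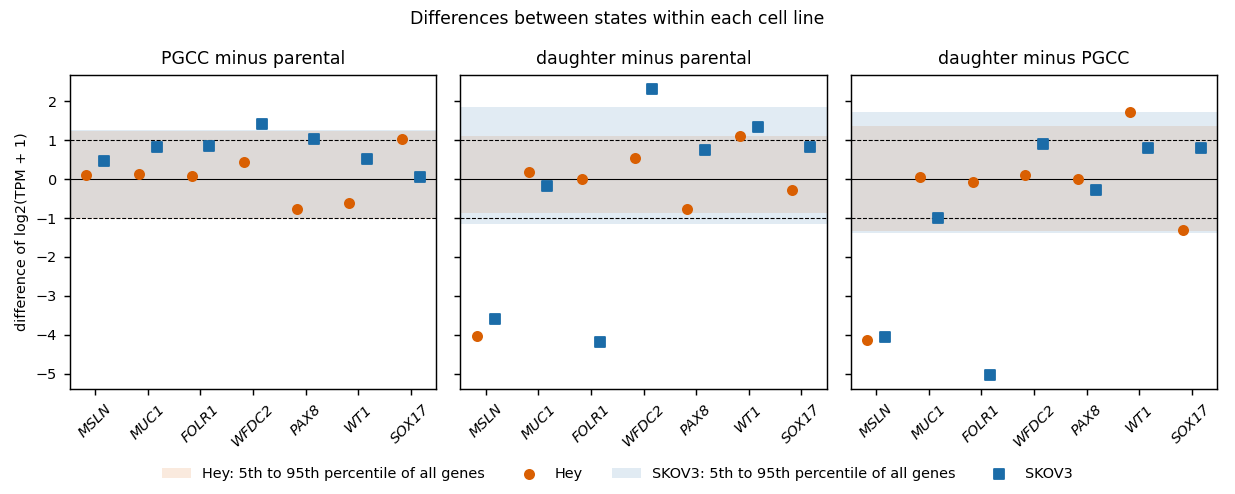
Differences of log2(TPM + 1) (y axis) of the 7 expressed markers (x axis) for each pair of states, in Hey (circles) and SKOV3 (squares). Each point is 1 library minus 1 library, dashed lines mark 2-fold and the shaded bands hold the 5th to 95th percentile of all 14988 genes. MSLN lies under the band in both daughter panels and both lines (-4.02 and -3.58 from parental cells), FOLR1 in SKOV3 only.

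In a fit across all genes, limma on log2(TPM + 1) with state and cell line as terms, the lines served as the only repeat, with 2 residual degrees of freedom. MSLN was lower in daughter than in parental cells by a fitted difference of -3.80 (SE 0.397), with an adjusted p of 0.105 from limma and a range of 0.0617 to 1 over 7 settings. Against PGCCs the fitted difference was -4.09 (SE 0.397) with an adjusted p of 0.0953 from limma and a range of 0.0580 to 1. MSLN was lower in both lines in each comparison, yet it did not pass the threshold of 0.05. No marker did in the comparisons of states. Of all genes, 0.02% passed for PGCC against parental cells, 0.0133% for daughter against parental cells and 0% for daughter cells against PGCCs. At an unadjusted limma p under 0.05, 0, 1 and 2 of the markers passed in these 3 comparisons, and 409, 508 and 758 of all genes. For FOLR1, daughter against PGCC gave -2.56 (SE 1.07) and a limma adjusted p of 0.908, the 2 lines differing at -0.08 and -5.04.

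Between the lines, FOLR1, MUC1 and SOX17 were higher by 2-fold in SKOV3 in each state, while WT1 was not called in any. For SOX17 in PGCCs the call depended on the setting. In parental cells FOLR1, MUC1 and SOX17 were higher by 2-fold in SKOV3, by 6.20, 4.43 and 2.05, and 0 markers were lower by 2-fold, though PAX8 (-0.52) and WT1 (-0.60) had negative values, with 24.2% and 11.5% of all genes higher and lower. In PGCCs 5 markers were higher (FOLR1 by 6.97, MUC1 by 5.11, WFDC2 by 1.59, PAX8 by 1.30 and SOX17 by 1.06), with 29.6% of all genes higher and 13.4% lower. In daughter cells 6 were higher (MUC1 by 4.07, SOX17 by 3.15, WFDC2 by 2.39, FOLR1 by 2.02, MSLN by 1.04 and PAX8 by 1.02), with 29.5% and 12.3% of all genes called. The median over all genes was itself above 0, at 0.29, 0.35 and 0.38 in the 3 states. Median-ratio scaling brought it to between 0.01 and 0.08. PAX8 (0.99) and SOX17 (0.79) in PGCCs and MSLN (0.82) and PAX8 (0.62) in daughter cells were then under 2-fold. The differences between the lines in PGCCs also followed GC content, with a Spearman correlation of 0.363. After correction for GC and length, SOX17 in PGCCs fell to 0.07 and PAX8 to 0.31. FOLR1 (6.22), MUC1 (4.17) and WFDC2 (1.13) stayed past 2-fold there. SOX17 remained at 1.78 in parental and 2.78 in daughter cells under this correction. Quantile normalization put SOX17 at 0.67 and PAX8 at 1.05 in PGCCs.

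The limma comparison of SKOV3 with Hey, which rests on 3 libraries a line, passed an adjusted p of 0.05 for 3 markers, and 20.6% of all genes passed. MUC1, FOLR1 and WFDC2 entered the fit only through SKOV3, where they are higher, so their values are a description. With no filter the limma adjusted p was 0.0357 for MUC1, 0.108 for FOLR1 and 0.134 for SOX17. The fitted difference was 4.54 (SE 0.392) for MUC1, with an adjusted p of 0.000559 from limma and a range of 0.000100 to 0.0677 over 13 settings. For FOLR1 it was 5.06 (SE 0.877) with a limma adjusted p of 0.00866 and a range of 0.00170 to 0.152. For SOX17 it was 2.09 (SE 0.471) with a limma adjusted p of 0.0219 and a range of 0.0103 to 0.134. Each of the 3 was higher in SKOV3 in all 3 states. Leaving out the Hey or the SKOV3 library of a state gave the same fitted difference. For SOX17 it was 2.11 without a parental, 2.60 without a PGCC and 1.56 without a daughter library. The 6 fits that left out a library are thus 3 pairs, each resting on the other 2 states. No marker passed without the Hey PGCC or without the SKOV3 PGCC library, fits with 1 residual degree of freedom in which 0 of all genes passed. In both of these fits the 3 markers had an unadjusted limma p between 0.000755 and 0.0308. Only MUC1 passed without the SKOV3 parental library, MUC1 and FOLR1 passed in the other 3 fits that left out a library, and SOX17 passed in none of the 6. WFDC2 (1.53), MSLN (0.86), PAX8 (0.60) and WT1 (-0.15) did not pass, with limma adjusted p of 0.0742, 0.0990, 0.320 and 0.842. The limma adjusted p of WFDC2 ran from 0.0394 to 0.235 over 13 settings, and it passed with a pseudocount of 0.1.

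Among surface antigens of ovarian carcinoma other than these markers, the SKOV3 daughter cells showed both directions. Of 12 genes, 9 were expressed. In SKOV3 daughter against parental cells SLC34A2, BCAM and CDH6 were higher and EPCAM and F3 lower, with a list median of 0.23 beside 0.15 for all genes. In that comparison 15.1% of all genes were higher and 6.34% lower. SLC34A2, a sodium-phosphate cotransporter (NaPi2b), was at 0.0235, 0.148 and 18.6 TPM in SKOV3 parental, PGCC and daughter cells. CDH6, a cadherin, was at 3.57, 1.02 and 14.3 TPM. SLC34A2 and CDH6 were named after their values were seen. Both passed the filter only through the SKOV3 daughter library, so their calls as higher there were favoured in advance. EPCAM, an epithelial adhesion molecule, was at 68.8, 43.6 and 8.15 TPM. In Hey daughter against parental cells CD24 was higher and BCAM and F3 were lower, with a list median of -0.48 beside 0.05. There 6.31% of all genes were higher and 3.73% lower. F3 (tissue factor) was thus lower in the daughter cells of both lines, while BCAM went in opposite directions. ERBB2, which is amplified in SKOV3, was at 1127 to 1778 TPM there and at 8.20 to 14.1 in Hey.

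Of the secreted markers other than WFDC2 and KLK6, 9 were expressed. In Hey PGCCs against parental cells 4 of them were higher and 0 lower, beside 7.67% and 5.22% of all genes, with a list median of 0.75 beside 0 for all genes. In Hey daughter against parental cells 0 were higher and 2 lower (SPP1 and MDK), beside 6.31% and 3.73% of all genes. In SKOV3 daughter against parental cells 3 were higher (IGFBP2, MDK and CP) and 1 lower (PI3), beside 15.1% and 6.34% of all genes. CP passed the filter only through the SKOV3 daughter library, so its call was favoured in advance. GDF15, a stress-induced cytokine, was at 11.2, 129 and 22.6 TPM in Hey parental, PGCC and daughter cells. PI3 (elafin), a relative of WFDC2, was at 24.7 TPM in Hey PGCCs and listed at 0 in Hey parental and daughter cells. SLPI, another WFDC protein, was at 1.37, 14.5 and 3.58 TPM in Hey and at 142, 158 and 83.5 in SKOV3. LCN2, an iron-carrier-binding lipocalin, reached 0.682 TPM in Hey and was at 41.2 to 79.1 in SKOV3. In SKOV3 PGCCs, where WFDC2 was higher, 0 of the 9 were higher or lower than in parental cells. Of all genes, 9.94% were higher and 4.96% lower there.

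**Figure D3:**
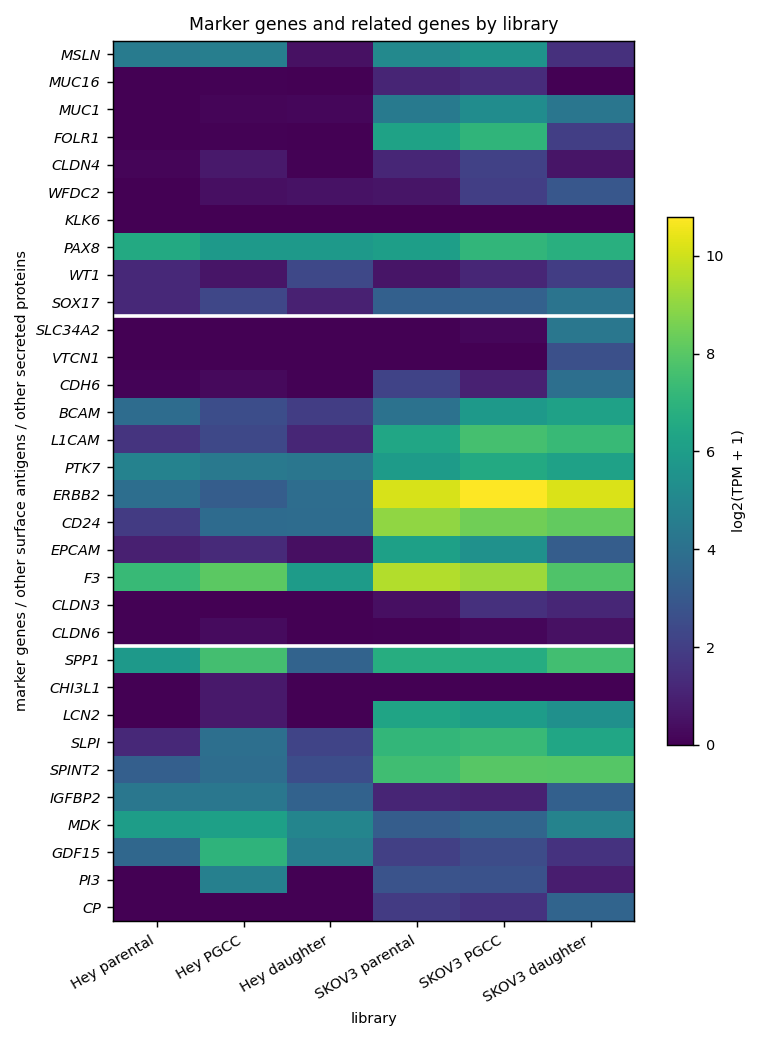
Levels as log2(TPM + 1) (colour) of the 10 markers, 12 other surface antigens and 10 other secreted proteins (rows, separated by white lines) in the 6 libraries (columns). ERBB2, CD24, L1CAM, LCN2 and SPINT2 are brightest in SKOV3, and SLC34A2 exceeds 1 TPM in SKOV3 daughter cells only, at 18.6 TPM.

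Of the Müllerian and steroid receptor regulators related to PAX8, SOX17 and WT1, 5 of 12 were expressed. In SKOV3 daughter against parental cells HOXA10 and BHLHE41 were higher and ESR1, MEIS1 and MECOM lower. The list median was -1.05 beside 0.15 for all genes, of which 15.1% were higher and 6.34% lower. ESR1, the oestrogen receptor, was at 5.35, 5.61 and 0.676 TPM in SKOV3 and at most 0.0477 in Hey. MECOM, a zinc finger factor, was at 224, 179 and 108 TPM in SKOV3 and between 29.1 and 42.4 in Hey. In Hey 0 of the 5 were called in daughter against parental cells, beside 6.31% of all genes higher and 3.73% lower. PAX2, the relative of PAX8, reached only 0.189 TPM.

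Relatives of the surface proteins were mixed. Of 16 other claudins, CLDN16 was at 0.711, 2.63 and 737 TPM in SKOV3 parental, PGCC and daughter cells, and CLDN11 at 67.0, 51.6 and 285 TPM in Hey. CLDN7, an epithelial claudin, was at 8.60, 21.9 and 0.201 TPM in SKOV3, the same order as CLDN4. Among 12 other mucins only MUC20 was expressed, with a highest value of 4.53 in SKOV3 PGCCs. Of the genes of folate uptake and metabolism other than FOLR1, 14 of 15 were expressed. In Hey PGCCs against parental cells FOLR3 was higher and 8 enzymes were lower, beside 7.67% and 5.22% of all genes, and the list median was -1.03 beside 0. In SKOV3 PGCCs 2 were higher and 1 lower, beside 9.94% and 4.96% of all genes, with a list median of 0.25. In SKOV3 daughter against parental cells, where FOLR1 was lower, 1 was higher, SLC46A1 (the proton-coupled folate transporter), at 5.52, 8.69 and 13.2 TPM, and 0 were lower. The shares of all genes were 15.1% higher and 6.34% lower.

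Over the 6 libraries, the genes whose log2(TPM + 1) followed MSLN most closely were ABT1 (Pearson r = 0.986), LY75-CD302 (0.976) and PINK1-AS (0.970), and 4 of 14987 genes exceeded 0.95. ABT1, the closest, was at 10.5, 10.5 and 6.92 TPM in Hey and at 11.1, 12.7 and 8.03 in SKOV3, a far smaller range than that of MSLN. FOLR1 was followed by AC093001.1 (0.999), MEGF6 (0.997) and ESR1 (0.997), with 216 genes over 0.95. MUC1 was followed by MAL (0.9997), CDIP1 (0.999) and BCAS1 (0.999), with 891 such genes, and MAL was at 80.5, 183 and 65.5 TPM in SKOV3 and 0 in Hey. For SOX17 the closest were NRCAM (0.998), TARS3 (0.998) and ASMTL-AS1 (0.996), and for WFDC2 SLC25A42 (0.999), CERS4 (0.994) and BCORL1 (0.993). These values describe 6 points that share 2 cell lines.

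The libraries as a whole grouped by line, with Spearman correlations of 0.869 to 0.949 within a line and 0.714 to 0.794 between lines. KRT7, KRT8 and KRT18, keratins of simple epithelia, were at 220 to 1052 TPM in all 6 libraries, while CDH1 did not exceed 0.0283 TPM in Hey. KRT19, another such keratin, was at 2.47, 3.60 and 0 TPM in Hey parental, PGCC and daughter cells and at 292, 711 and 80.2 in SKOV3. EPCAM was at 0.369 to 1.43 TPM in Hey. PTPRC did not exceed 0.425 TPM and CD3E was at 0 in all libraries, which leaves the defining leukocyte genes near 0, although CD68, a leukocyte list member, was at 0.840 to 69.3 TPM. Fibroblast genes summed to 0.274 to 28.3 TPM over 8 genes. The highest sum was in SKOV3 daughter cells, where COL1A1 was at 16.3 TPM and PDGFRB at 5.35 and where WFDC2 was highest and MSLN, MUC16 and FOLR1 were lowest in SKOV3. In Hey daughter cells, which also had low MSLN, the fibroblast sum was 0.274 TPM. Mesothelial genes, some of which mark the cells that normally express MSLN, summed to 183 to 234 TPM over 7 genes in Hey, mostly PDPN, and to 10.1 to 41.8 in SKOV3. The list was mixed between the lines. In daughter cells PDPN, BNC1 and CALB2 were higher by 2-fold in Hey, and UPK3B and LRRN4 in SKOV3. UPK3B and LRRN4 reached 29.4 and 11.5 TPM in SKOV3 daughter cells, where MSLN was low, and at most 0.0578 and 0.322 TPM in Hey. Among endothelial genes CDH5 was at 33.2 to 48.5 TPM in Hey and PECAM1 at 0.272 or less. The part of other cell types in the results was not tested.

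In SKOV3 PGCCs, changes from parental cells followed the GC content of the genes, with a Spearman correlation of 0.704 across 13468 genes, and -0.45 for daughter cells against PGCCs. In Hey the PGCC value was -0.04. MSLN is GC-rich at 65.4%, above 97.9% of genes, and the other markers lie between 50.3% and 58.6%. With a GC and length trend removed, the SKOV3 PGCC minus parental differences were 1.25 for WFDC2, 0.44 for PAX8, 0.46 for FOLR1, 0.18 for MUC1 and 0.25 for WT1. They were -0.53 for MSLN and -0.58 for SOX17, so MSLN and SOX17 changed sign under this setting. The SKOV3 daughter minus PGCC differences were then -3.41 for MSLN and -4.73 for FOLR1. The share of TPM in mitochondrial genes ran from 2.64% to 14.8% over the libraries, and the called differences of MSLN and FOLR1 stayed past 2-fold without these genes.

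**Figure D4:**
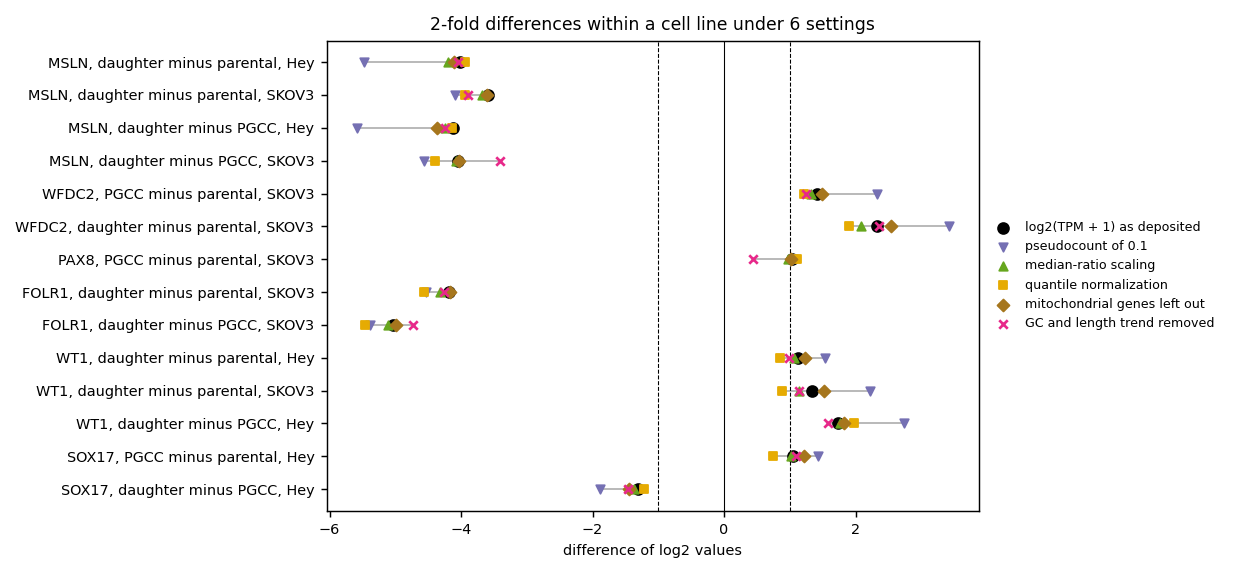
Differences of log2 values (x axis) for the 14 marker differences within a line that reached 2-fold (rows), under 6 settings (symbols), each 1 library minus 1 library. Dashed lines mark 2-fold. The rows of MSLN (-5.59 to -3.41 over the settings), FOLR1 and WFDC2 stay outside these lines in every setting, while PAX8 falls to 0.44 with the GC and length trend removed.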

How the data were processed

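RNA from 6 libraries (parental, PGCC and daughter cells of Hey and SKOV3) was sequenced by the authors, who trimmed reads with fastp, quantified them on hg38 with salmon 0.14.1 and deposited TPM values for 59008 gene symbols. The annotation release, strand setting and the step from transcripts to genes are not given in the sources used here. The columns summed to 911825 to 920497 TPM, and no read counts are held, so the depth behind a value is unknown.

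Values were compared as differences of log2(TPM + 1), and a difference of at least 1 was called among the 14988 genes whose mean over the libraries reached 1 TPM. With 1 library per condition no p-value was computed for a pair. limma 3.58.1 in R 4.3.3 was fitted to all these genes with state and line as terms, an intensity trend and Benjamini-Hochberg adjustment; its spread is the disagreement between the lines, which are not replicates of one culture. Lowess (fraction 0.3, 2 passes) over GC content and length gave the GC alternative for the 13468 genes with a GC value. It removed both trends, also where only GC is named below. The other alternatives were a pseudocount of 0.1, no filter, a filter at a mean of 5 TPM, median-ratio scaling, quantile normalization, mitochondrial genes left out and a 3-fold threshold. limma was also run without the second term, without the trend and without each library. Python 3.11.15 with pandas 2.3.3, scipy 1.17.1 and statsmodels 0.14.6 was used. Positions are from GENCODE 44, matched by symbol, and promoters from RefSeq. The steps were tested on simulated data.

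The 10 markers and the related lists were chosen with earlier results of these data known. The genes named were all 10 markers, up to 4 genes of each related list with the largest range over the libraries, neighbouring and antisense genes, and, for expressed markers that ranged over at least 2 log2 units, the 3 genes with the highest correlation. Other genes of the related lists and of the cell type markers, such as SLC34A2, CDH6, BCAM, F3, BHLHE41, MEIS1, KRT7, KRT18 and CD3E, fall outside this rule and were named after their values were seen. Promoter windows of MSLN, FOLR1 and SOX17 are not used here. A member of the surface antigen list is not reported here.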

Additional observations from a re-analysis of the deposited data

Results flagged for a closer look

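For 7 differences the lines moved in opposite directions, each on 1 library per state, and these differences between the lines were not tested. For PGCC minus parental, PAX8 was at -0.77 in Hey and 1.04 in SKOV3, and WT1 at -0.62 and 0.53. For daughter minus parental, PAX8 was at -0.78 in Hey and 0.76 in SKOV3, MUC1 at 0.18 and -0.18, and SOX17 at -0.27 and 0.83. For daughter minus PGCC, MUC1 was at 0.0457 in Hey and -0.998 in SKOV3, and SOX17 at -1.31 and 0.79. MUC1 was under 0.2 TPM in every Hey library, so its Hey values are differences near 0. The 2 SOX17 and 2 PAX8 differences from parental or PGCC libraries share libraries with each other.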

How the results depend on the processing

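Of 63 marker differences, 28 reached 2-fold in the main setting. All 28 kept their direction under every alternative and 20 reached 2-fold in every setting, while 14 others reached it in an alternative only. The counts of markers called moved as follows. In Hey PGCC against parental cells, 1 became 4 with a pseudocount of 0.1 and 0 at 3-fold. In SKOV3 PGCC against parental cells, 2 became 1 with the filter at a mean of 5 TPM, with median-ratio scaling and with the GC trend removed, and 0 at 3-fold. In Hey daughter against parental cells, 2 became 4 with the pseudocount of 0.1 and 1 with the stricter filter, quantile normalization, 3-fold or the GC trend removed. In SKOV3 daughter against parental cells, 4 became 2 with the stricter filter. In SKOV3 daughter cells against PGCCs, 2 became 5 with the pseudocount and 4 with no filter, mitochondrial genes left out or the GC trend removed. Between the lines, parental cells went from 3 to 5 with the pseudocount or no filter, and PGCCs from 5 to 3 with median-ratio scaling, 3-fold or the GC trend removed. For limma between the lines, 3 became 1 with no filter, and leaving out 1 library gave 0 to 2. Apart from the filters, which change the genes tested, the cause was not tested. A fit without a whole line could not be made, since no residual degrees of freedom remain. Depth is unknown, so values under 1 TPM, including most of MUC16, CLDN4 and the Hey values of FOLR1 and MUC1, have no stated precision.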
